A study of Mus musculus with 8 samples.

Results

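Haemoglobin is built from an alpha-type and a beta-type globin chain, each holding a heme group that binds oxygen. In mouse embryos the earliest red cells, which arise in the yolk sac, use the embryonic chains zeta (Hba-x), epsilon-y (Hbb-y) and beta-h1 (Hbb-bh1), and the later red cells of the fetal liver and bone marrow use the adult alpha and beta chains. Blood in the vessels of a dissected tissue carries this RNA into the sample, so globin transcripts are commonly measured in whole tissue that makes no red cells of its own. The genes described here are the 9 symbols Hba-x, Hbb-bh1, Hbb-y, Hba-a1, Hbb-b1, Hbb-b2, Alas2, Ahsp and Slc4a1, taken by exact match to the gene name that the array files give each probe. They are 9 of 36083 gene names on the array and are measured by 10 probes, since Hbb-y has 2.

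The study compared the whole small intestine at embryonic stage E18.5 between wild-type animals (labelled control, Rfx6+/+, 4 arrays) and animals with both copies of Rfx6 deleted in every cell (labelled knockout, Rfx6-/-, 4 arrays). Rfx6 encodes a transcription factor, and the null allele came from a floxed allele recombined by CMV-Cre, a Cre with broad activity including the germ line, after which heterozygotes were crossed. No other treatment is given in the labels, and strain and sex are not given in the sources used here. Nothing in the labels says whether each array came from a separate animal, so p-values measure the spread between these samples, which may be technical in part. Sample titles carry a different number for each array, and what it stands for is not stated. The replicate numbers used here come from the source names instead.

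The arrays are 60-base oligonucleotide arrays read in 1 colour, and 57.4% to 67.1% of probes were well above background on each array. The 75th percentile of the processed signal lay between 636 and 741 scanner units. The only Rfx6 probe starts at base 3337 of its transcript, and its level was 0.38 higher on the log2 scale on the knockout arrays (standard error 0.29, limma adjusted p 0.503), so it does not check the labels; groups are called by their labels. The knockout arrays had called falls for 7 of 8 gut peptide hormones, with a median log2 difference of -6.71 over the 8. The remaining hormone, Pyy (limma adjusted p 0.127), had a log2 level of 1.413 on knockout 1, above every control array (0.3468 to 1.385). On the other knockout arrays it lay between -2.777 and -2.563. Among all 23276 genes tested, 602 were lower and 543 higher on the knockout arrays (limma, adjusted p under 0.05), so 52.6% of calls were lower. With arrays centred on their medians the counts were 253 lower and 545 higher, or 31.7% lower.

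Because globin genes are close relatives, a probe may read more than 1 of them, so the probe sequences and positions are given here. The probes that lie in the coding part of the transcript are given 5′ to 3′ as the files hold them, in lower case throughout because no base is singled out.
Hba-x: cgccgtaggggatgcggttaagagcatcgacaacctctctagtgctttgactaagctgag
Hbb-y: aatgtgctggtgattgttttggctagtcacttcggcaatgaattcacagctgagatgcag
Hba-a1: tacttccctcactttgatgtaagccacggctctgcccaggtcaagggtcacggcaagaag
Hbb-b2: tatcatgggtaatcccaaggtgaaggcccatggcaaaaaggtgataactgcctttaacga
Ahsp: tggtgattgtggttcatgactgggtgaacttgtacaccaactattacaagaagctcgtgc
The Hba-a1 probe sits on chromosome 11 at 32183955 to 32184014 on mm9, and the accessions listed for it in the files belong to both Hba-a1 and Hba-a2, the neighbouring adult alpha gene, so its signal cannot be assigned to 1 of the copies. The Hba-x probe lies on the same chromosome at 32177668 to 32177727. The Hbb-y probe shown lies on chromosome 7 at 111000448 to 111000507, and a further Hbb-y probe at 111000268 to 111000327. The Hbb-bh1 probe lies at 110990209 to 110990268 and the Hbb-b1 probe at 110961105 to 110961164, both on chromosome 7, so 4 beta-type probes with coordinates fall within 1 gene cluster. The accession of the Hbb-b1 probe is named Hbb-bt in the RefSeq table of GRCm38.p6; Hbb-b1 and Hbb-b2 are the paired adult beta genes of some mouse strains, and Hbb-bt and Hbb-bs those of others. The files give no mm9 position for the Hbb-b2 and Ahsp probes. The Alas2 probe is on chromosome X at 147004993 to 147005052 and the Slc4a1 probe on chromosome 11 at 102210256 to 102210315. Signals of near-identical copies cannot be separated on an array, so values of single adult globin genes are those of the probe.

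Promoter sequence was available for 4 of the 9 symbols in the RefSeq table, and for Hbb-bt. The 120 bases before the start are shown for an adult and an embryonic gene of each cluster, because the globin promoters are known for a shared set of short boxes, and the members of each cluster were measured on the same arrays. Capitals mark matches on either strand to the box CACCC, to the box CCAAT, to the box TATAA and to the core GATAA. Adjoining matches on opposite strands are both in capitals.
Hba-a1, chr11:32283552-32283671 on GRCm38.p6, plus strand: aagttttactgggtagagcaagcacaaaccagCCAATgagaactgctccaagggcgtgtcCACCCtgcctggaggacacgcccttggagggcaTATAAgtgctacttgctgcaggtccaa
Hbb-bt, chr7:103813924-103814043 on GRCm38.p6, minus strand: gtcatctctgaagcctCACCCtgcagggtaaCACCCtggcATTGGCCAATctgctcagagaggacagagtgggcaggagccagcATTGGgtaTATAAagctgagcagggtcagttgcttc
Hba-x, chr11:32276480-32276599 on GRCm38.p6, plus strand: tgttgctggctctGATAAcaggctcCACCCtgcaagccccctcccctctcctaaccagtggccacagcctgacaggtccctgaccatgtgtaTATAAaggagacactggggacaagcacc
Hbb-y, chr7:103853208-103853327 on GRCm38.p6, minus strand: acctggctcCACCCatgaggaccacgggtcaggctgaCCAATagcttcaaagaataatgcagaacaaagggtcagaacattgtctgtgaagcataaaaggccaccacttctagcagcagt
Each of the 4 windows holds CACCC, which occurs in 31.7% of all 32851 promoter windows of this length. CCAAT (21.3% of windows) is in 3 of them and TATAA (11.8%) in 3. GATAA (10.5%) is in the Hba-x window alone among these 4. Within 250 bases before the start, each of the 4 holds 1 match to it, and 22.6% of all promoters hold a match. These matches describe letters only and say nothing about which factor binds.

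The adult alpha and beta globins gave strong signals on every array. Hba-a1, an adult alpha chain, read 98637, 105960, 61753 and 81250 signal units on control arrays 1 to 4 and 72547, 48845, 80061 and 80526 on knockout arrays 1 to 4. Knockout 2 was the lowest array and control 2 the highest, and the groups overlapped. On the scale used for testing, log2 of the signal minus the array's 75th percentile, control arrays averaged 6.98 ± 0.32 (SD, n = 4) and knockout arrays averaged 6.64 ± 0.36 (SD, n = 4). The knockout minus control value was -0.34, with a 95% interval from -0.81 to 0.13 (limma adjusted p 0.398), and did not exceed the spread between arrays. Without knockout 2 it was -0.18, and without control 3 it was -0.47. In bulk tissue, fewer red cells and less globin RNA per cell cannot be told apart.

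**Figure D1:**
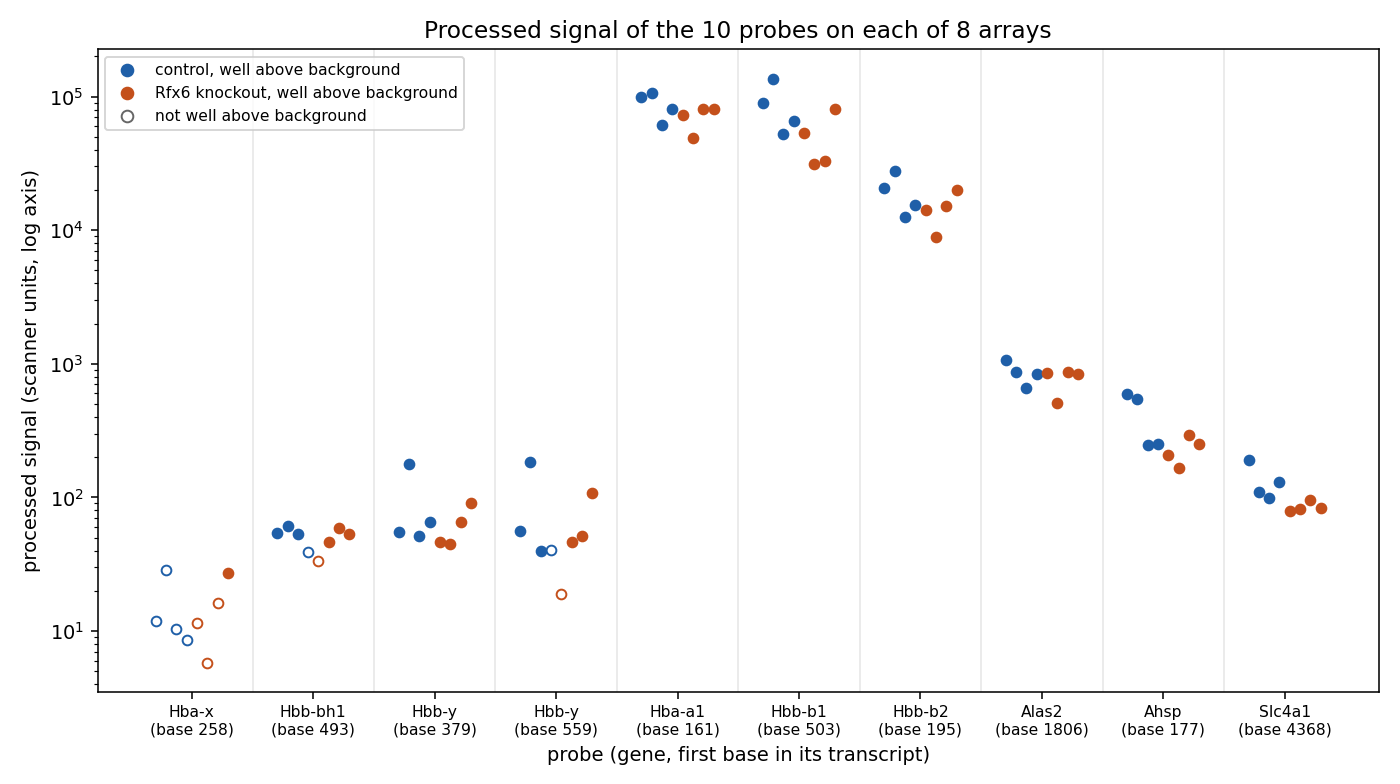
Processed signal in scanner units (log axis) of the 10 probes on each of the 8 arrays, in the order control 1 to 4 (blue) and knockout 1 to 4 (orange) within each probe; open circles were not well above background. Within a probe the points compare arrays; heights of different probes are not comparable, and Hba-x was well above background on 1 array only.

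Hbb-b1, an adult beta chain, varied more than Hba-a1. Its signals were 89800, 136119, 52892 and 65834 on control arrays 1 to 4 and 53184, 31057, 32900 and 80480 on knockout arrays 1 to 4. The lowest was knockout 2 and the highest control 2, a 4.32-fold range in the levels scaled to each array's 75th percentile, and knockout 4 lay above control 3 and control 4. Mean log2 levels were 6.90 ± 0.56 (SD, n = 4) and 6.04 ± 0.70 (SD, n = 4). Taken back from log2, the difference is a knockout over control fold of 0.551. The log2 difference of -0.86 had a 95% interval from -1.71 to -0.01, but the limma adjusted p was 0.238 and the exact two-sided permutation p was 0.114. It was -0.69 without knockout 3 and -0.63 without control 2, with limma adjusted p of 0.407 and 0.375. In the other direction, it was -1.17 without knockout 4 and -1.04 without control 3, with limma adjusted p of 0.0794 and 0.208.

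Hbb-b2 is by name the partner of Hbb-b1 in the adult beta pair of some strains. With strain not given, whether these probes read partner genes here is not known. The Hbb-b2 probe gave 20614, 27914, 12519 and 15521 signal units on control arrays 1 to 4. On knockout arrays 1 to 4 it gave 14071, 8857, 15203 and 20128. The same arrays were at the ends as for the other adult chains, knockout 2 low and control 2 high, and the groups overlapped. Means were 4.76 ± 0.47 (SD, n = 4) and 4.33 ± 0.54 (SD, n = 4), a log2 difference of -0.43 with a 95% interval from -1.11 to 0.25 (limma adjusted p 0.462). It was -0.21 without knockout 2, -0.24 without control 2 and -0.65 without knockout 4.

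The embryonic globins gave weak signals at this stage. Hba-x, the embryonic alpha-type zeta chain, was well above background on 1 of 8 arrays, knockout 4, at 27.0 signal units; the others read between 5.8 and 28.8. It was not tested, and no fold is given. Hbb-bh1, the embryonic beta-h1 chain, was well above background on 6 of 8 arrays, all but control 4 and knockout 1. Its signals were 53.7, 61.0, 53.5 and 39.3 on control arrays 1 to 4 and 33.2, 46.1, 58.5 and 53.3 on knockout arrays 1 to 4. Neither group had all 4 arrays above background, so Hbb-bh1 was not tested either; with no filter its log2 difference was -0.17 (limma adjusted p 0.728). It passed the filter when an array was left out that lacked it, and the difference was then 0.02 without knockout 1 and -0.32 without control 4 (limma adjusted p 0.965 and 0.42).

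Hbb-y, the embryonic epsilon-y chain, was the only embryonic globin to pass the filter. Its coding probe read 54.7, 177.7, 51.2 and 64.9 signal units on control arrays 1 to 4 and 46.4, 44.7, 65.2 and 90.7 on knockout arrays 1 to 4. Control 2 stood well above the other 7 arrays and knockout 4 was next. The second Hbb-y probe read 56.2, 185.4, 39.4 and 40.5 on control arrays and 18.9, 46, 51.1 and 107.6 on knockout arrays, with control 2 and knockout 4 again the highest; it was not well above background on control 4 and knockout 1. The coding probe had means of -3.16 ± 0.80 (SD, n = 4) and -3.55 ± 0.55 (SD, n = 4), a log2 difference of -0.39 with a 95% interval from -1.30 to 0.53 (limma adjusted p 0.622). Without control 2 this difference was 0.0068 (limma adjusted p 0.992), so its direction rests on that array. It was -0.24 without knockout 1, -0.26 without knockout 2 and -0.64 without knockout 4.

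The other members serve the red cell in other ways. Alas2, the erythroid enzyme for the first step of heme synthesis, read 1071, 868.2, 662.5 and 840.4 signal units on control arrays 1 to 4. On knockout arrays 1 to 4 it read 853.8, 511.5, 861.8 and 839.6. Apart from a low knockout 2 and a high control 1, the arrays were close to each other, and the groups overlapped. Its log2 difference was -0.22, with a 95% interval from -0.67 to 0.23 (limma adjusted p 0.576). Without knockout 2 it was -0.04 and without control 1 it was -0.10. In the other direction, it was -0.31 without knockout 4 and -0.31 without control 3.

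Ahsp, the chaperone that holds free alpha globin stable, read 590.9, 544.6, 246.4 and 251.1 on control arrays 1 to 4 and 208.7, 166.6, 293.6 and 252.7 on knockout arrays 1 to 4. Control 1 and control 2 were the highest by a wide margin, while control 3 and control 4 fell within the range of the knockout arrays. Means were -0.85 ± 0.68 (SD, n = 4) and -1.62 ± 0.38 (SD, n = 4). The log2 difference of -0.78 had a 95% interval from -1.52 to -0.04 and a limma adjusted p of 0.223 (exact two-sided permutation p 0.171).

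Slc4a1, the anion exchanger known as band 3 of the red cell membrane and also made in kidney, was the only member whose groups did not overlap. It read 189.8, 109.9, 99.5 and 130 on control arrays 1 to 4 and 79.3, 82.3, 96.2 and 83.8 on knockout arrays 1 to 4. The gap was narrow, from 96.2 on knockout 3 to 99.5 on control 3. Means were -2.40 ± 0.42 (SD, n = 4) and -3.03 ± 0.15 (SD, n = 4), and the log2 difference was -0.63 with a 95% interval from -1.07 to -0.19. The exact two-sided permutation p was 0.0286, the smallest that 4 against 4 arrays can give, and the limma adjusted p over all genes was 0.106. Without control 1 the difference was -0.43 (limma adjusted p 0.122), and without control 3 it was -0.73 (limma adjusted p 0.104). Of all genes tested, 9.24% had knockout values wholly below the control values and 5.4% wholly above.

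Read together, 7 of the 9 members passed the filter on dim probes, and 0 of these 7 reached an adjusted p under 0.05 with limma. The share of all genes that did was 4.92%, 2.59% lower and 2.33% higher on the knockout arrays. All 7 had a lower mean on the knockout arrays, also under normexp background correction, quantile normalization, median centring and the series matrix values. Their median log2 difference was -0.43 beside -0.05 over all genes, of which 60.5% had a lower mean. The members' median was -0.25 without control 2, -0.26 without knockout 2 and -0.65 without knockout 4. At an unadjusted limma p under 0.05 there were 3 of 7 (Hbb-b1, Ahsp and Slc4a1), where 20.5% of all genes were below that value. The 7 are not independent of each other, since they share the arrays and, for most, a cell type.

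**Figure D2:**
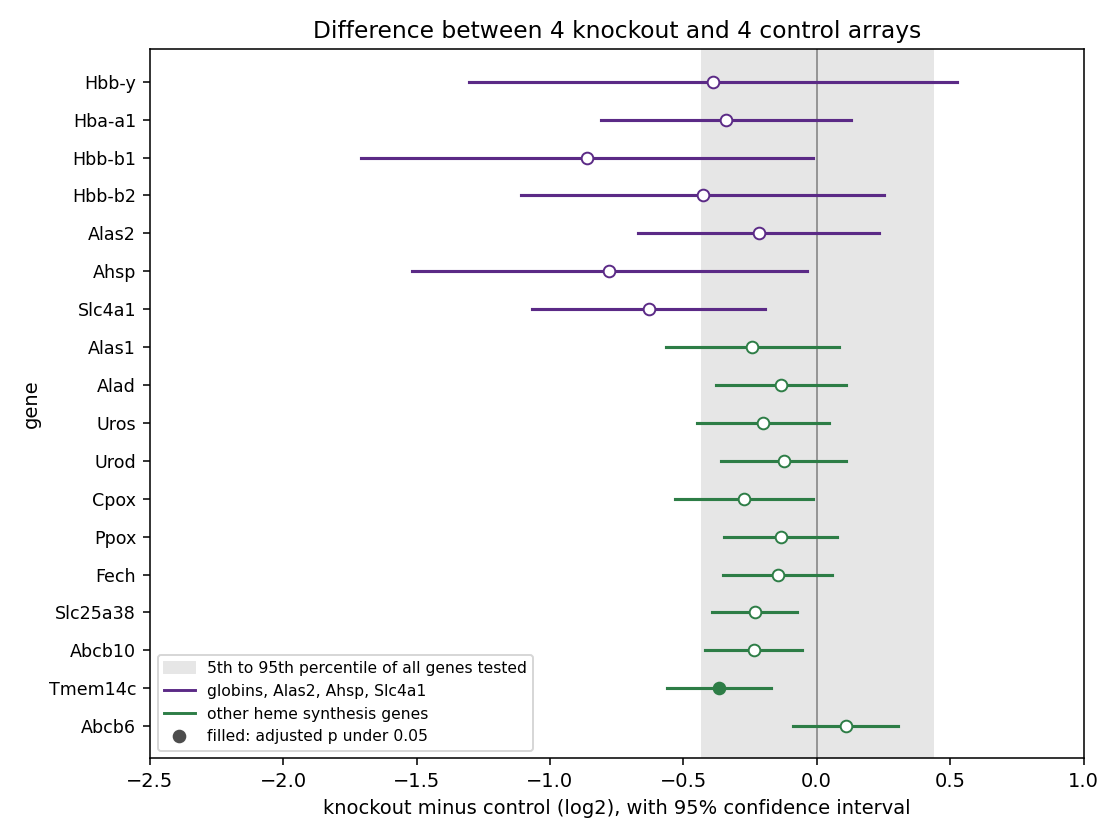
Difference between 4 knockout and 4 control arrays (log2, knockout minus control; horizontal axis) for the 7 members tested and 11 of the 12 other heme synthesis genes, with 95% confidence intervals; filled points passed the adjusted threshold and the grey band spans the 5th to 95th percentile of all genes, -0.43 to 0.44. All 7 members lie left of 0 with wide intervals, and Tmem14c is the only filled point.

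The spread between arrays of 1 group was large for the globins. The within-group SD of Hbb-y (0.69) exceeded that of 97.8% of genes tested, that of Hbb-b1 (0.63) exceeded 97.4%, that of Ahsp (0.55) 96.4% and that of Hbb-b2 (0.50) 95.6%. Hba-a1 (0.34), Alas2 (0.32) and Slc4a1 (0.31) exceeded 88.2%, 86.8% and 85.5%. The median over the 7 members was 0.50, beside 0.17 over all genes.

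The members shared their extreme arrays. Knockout 2 was the lowest array for 5 of the 7 and knockout 1 for the other 2, Hbb-y and Slc4a1. Control 2 was the highest for Hba-a1, Hbb-b1, Hbb-b2 and Hbb-y, and control 1 for Alas2, Ahsp and Slc4a1. On control arrays 1 to 4, 6, 7, 1 and 4 members lay above their own mean over the 8 arrays; on knockout arrays 1 to 4, 0, 0, 2 and 5 did. Control 3 therefore resembled the lower knockout arrays, and knockout 4 the higher control arrays.

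**Figure D3:**
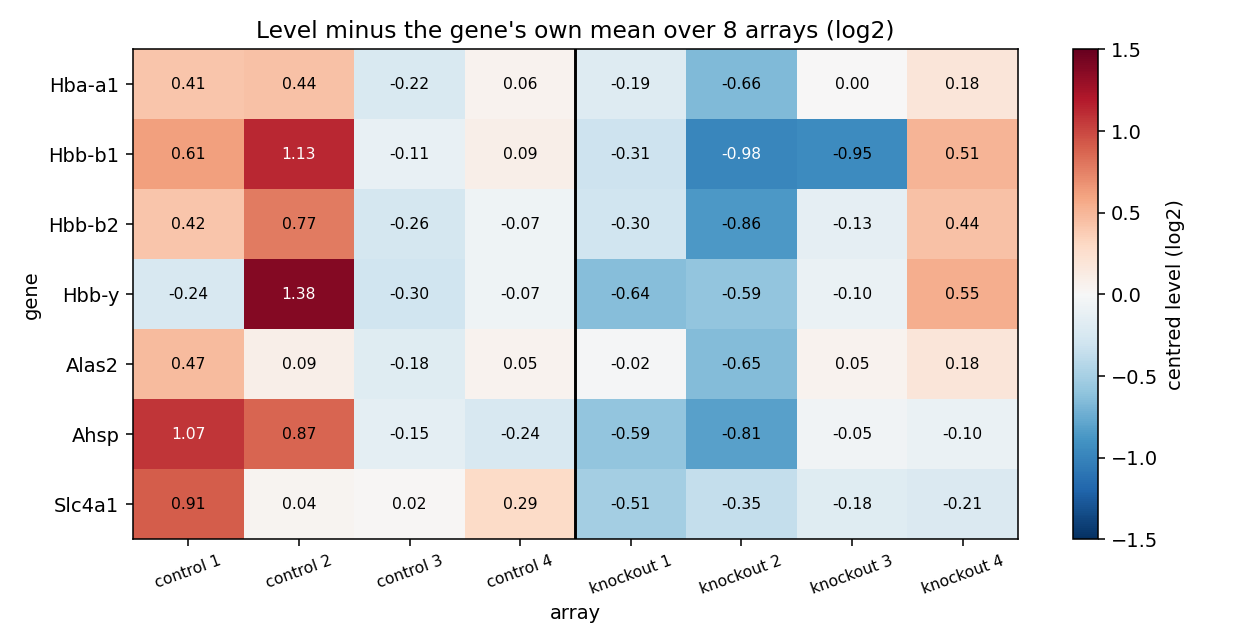
Level of each tested member on each array minus the gene's own mean over the 8 arrays (log2; red above, blue below the mean), control arrays left of the line and knockout arrays right of it. Control 1 and 2 are mostly red and knockout 2 is blue in every row, down to -0.98 for Hbb-b1, while knockout 4 is red for the 4 globins and Alas2.

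The arrays lay in 2 rows of 1 slide, with control 1 and knockout 2, 3 and 4 in row 1 and control 2, 3 and 4 and knockout 1 in row 2. Within row 1 the knockout minus control log2 difference was -1.16 for Slc4a1, -1.39 for Ahsp, -1.08 for Hbb-b1, -0.60 for Hbb-b2, -0.57 for Hba-a1 and -0.62 for Alas2. Within row 2 it was -0.63, -0.75, -0.68, -0.44, -0.28 and -0.0027 for the same genes in the same order. All 6 kept their sign in both rows. Hbb-y did not, at 0.19 in row 1 and -0.98 in row 2, where control 2 lies. Each row holds 1 array of 1 of the groups, so these values carry no test. With row as a block in the fit, Slc4a1 differed by -0.89 and passed the threshold (limma adjusted p 0.0191), the only member to do so. That fit also compares arrays within rows. It therefore leans on control 1, the only control in row 1, and on knockout 1, the only knockout in row 2. These were the highest and the lowest array for Slc4a1.

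To set embryonic against adult globin, levels were centred on each gene's mean over the 8 arrays. The adult value is the mean of Hba-a1, Hbb-b1 and Hbb-b2, and the embryonic value rests on Hbb-y alone because Hba-x and Hbb-bh1 did not pass the filter. The adult value averaged 0.27 ± 0.44 (SD, n = 4) over control arrays and -0.27 ± 0.50 (SD, n = 4) over knockout arrays, and it ranged over 3.06-fold between arrays. The Hbb-y value was 0.19 ± 0.80 (SD, n = 4) and -0.19 ± 0.55 (SD, n = 4). The embryonic minus adult difference was -0.72, 0.60, -0.10 and -0.09 on control arrays 1 to 4 and -0.37, 0.25, 0.26 and 0.17 on knockout arrays 1 to 4. Control arrays hold both the lowest and the highest of these, and the group means differed by 0.15, less than the SD of 0.54 within the control group. Its sign and size rest on single arrays: the group difference was -0.06 without control 1 and 0.38 without control 2. It was 0.44 without knockout 1, where Hbb-bh1 also passed the filter and entered the embryonic value, and 0.10 and 0.09 without knockout 2 and knockout 3. As a score over chosen genes it carries no p-value.

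The adult chains did not track each other equally. Root mean square distances between centred levels over the 8 arrays were 0.18 between Hba-a1 and Hbb-b2 and 0.14 between Hba-a1 and Alas2, but 0.46 between Hba-a1 and Hbb-b1. The pair was furthest apart on knockout 3, where Hbb-b1 relative to Hba-a1 lay -0.95 from its mean over the 8 arrays, against -0.32 to 0.70 on the others. Relative to Hbb-b2 it lay -0.81 from its mean on that array, against -0.12 to 0.36 on the others. Hbb-bs, the strain partner of Hbb-bt, has a probe of its own and gave the same picture: Hbb-b1 relative to Hbb-bs lay -0.80 from its mean on knockout 3 and -0.28 to 0.56 on the others. Hbb-b2 relative to Hbb-bs stayed within -0.16 to 0.20 on all 8 arrays. This was noticed after the values were seen and is a description with no test; the probes' share of signal from related copies was not tested.

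**Figure D4:**
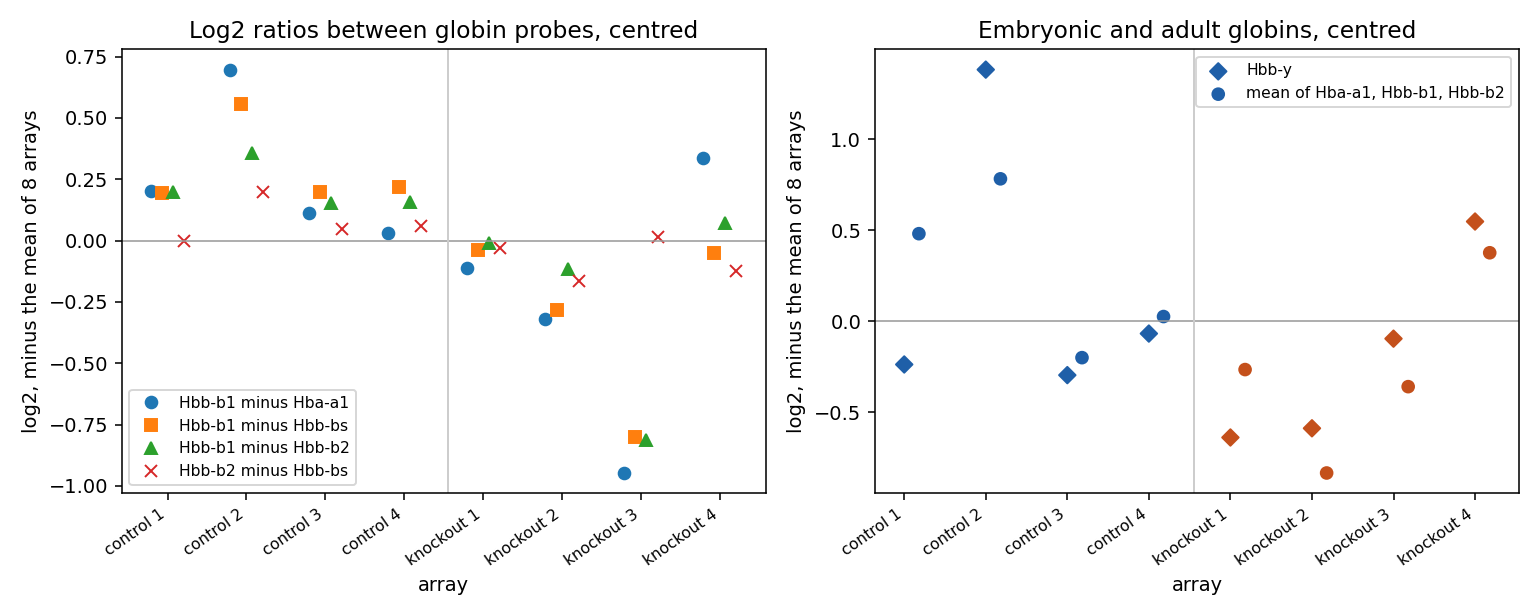
Left, log2 ratios between globin probes on each array minus the ratio's mean over the 8 arrays; the 3 ratios with Hbb-b1 drop to between -0.95 and -0.80 on knockout 3 while Hbb-b2 minus Hbb-bs stays near 0. Right, centred log2 levels of Hbb-y (diamonds) and of the mean of Hba-a1, Hbb-b1 and Hbb-b2 (circles), control arrays in blue and knockout arrays in orange; both are highest on control 2.

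Of the other globins on the array, 5 of 8 were tested and 0 passed the threshold (0 also at an unadjusted limma p under 0.05), with a median log2 difference of -0.16. Hba-a2, the second adult alpha copy, differed by -0.31 (limma adjusted p 0.302) and Hbb-bs by -0.28 (limma adjusted p 0.618), each with knockout 2 as the lowest array. Cygb and Ngb, globins of cells other than red cells, differed by 0.21 and 0.30 (limma adjusted p 0.563 and 0.526). Hbq1a, Hbq1b and Mb, the muscle myoglobin, did not pass the filter. Hbq1a was well above background on 0 control arrays and 2 knockout arrays. It read 4105.3 signal units on knockout 1 and 4 to 19.6 on the other arrays, and the cause was not tested.

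Heme is made from glycine and succinyl-CoA by enzymes that every cell carries, with Alas1 in place of Alas2 outside the red cell line. All 12 other heme synthesis genes were tested, and 1 fell, Tmem14c, a mitochondrial porphyrin transporter, by 0.37 on the log2 scale (limma adjusted p 0.0476), a call lost in 16 of 21 alternatives, among them leaving out any array other than knockout 4 (limma adjusted p 0.0706 to 0.145). The mean was lower on the knockout arrays for 11 of 12, under each of the 5 scalings, with a median of -0.22. Slc25a38, the mitochondrial glycine carrier, and Abcb10, a mitochondrial transporter of the inner membrane, differed by -0.23 and -0.24 (limma adjusted p 0.103 and 0.14). Their groups did not overlap, nor did those of Tmem14c. Of all genes tested, 9.24% had knockout values wholly below the control values. Cpox and Alas1 differed by -0.27 and -0.24 (limma adjusted p 0.224 and 0.384).

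Among 8 tested genes of heme and haemoglobin clearance, 1 passed the threshold. Flvcr1, a heme exporter of the cell surface, fell by 0.90 on the log2 scale, from 2.56 ± 0.13 (SD, n = 4) to 1.65 ± 0.22 (SD, n = 4) (limma adjusted p 0.00455; 0.0507, no longer under 0.05, with the replicate number as a block). Its highest knockout level, 1.98 on knockout 3, was below its lowest control level, 2.39 on control 3. Hp, the haemoglobin-binding plasma protein haptoglobin, differed by 1.37 (limma adjusted p 0.0838), and Hmox1, heme oxygenase, by 0.03 (limma adjusted p 0.926). The list's median was -0.04.

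Iron uptake genes gave 0 calls among 8 tested (0 also at an unadjusted limma p under 0.05), with a median of -0.13. Tfrc, the transferrin receptor, was 1.66, 1.81, 0.92 and 0.93 on control arrays 1 to 4 and 1.27, 0.92, 0.93 and 1.61 on knockout arrays 1 to 4. Control 1, control 2 and knockout 4 were the highest arrays here, as for Hba-a1, Hbb-b1 and Hbb-b2.

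Of 11 erythroid regulators, 9 passed the filter on dim probes. The other 2 were Gata1 and Klf1: Gata1, the erythroid master regulator, was well above background on 1 of 8 arrays, and Klf1, the erythroid activator of adult beta globin, on 0. Of 18 red cell membrane genes, 8 passed the filter; among the other 10, Rhag and Epb42 were well above background on 0 arrays. Among 9 tested erythroid regulators 1 fell, Zfpm1, the Gata1 partner also known as Fog1, by 0.61 (limma adjusted p 0.0302, lost in 9 of 21 alternatives, among them without any array other than control 2 or knockout 3, at 0.0681 to 0.0954), and the list's median was 0.12. Among the 8 tested membrane genes 1 rose, Xk, by 0.54 (limma adjusted p 0.023, lost in 8 of 21 alternatives, among them without control 1, 3 or 4 or knockout 3 or 4, at 0.0509 to 0.0725), and the median was 0.02.

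Among 10 tested genes of red cell cytoplasm and maturation, 1 rose and 1 fell. Car2, a carbonic anhydrase made in red cells and in several epithelia, rose by 3.74 on the log2 scale, from -0.76 ± 0.19 (SD, n = 4) to 2.98 ± 0.61 (SD, n = 4) (limma adjusted p 1.42e-04), and kept its call in 21 of 21 alternatives. Car1, its close relative in red cells, differed by -0.04 (limma adjusted p 0.816). Pklr, the pyruvate kinase of liver and red cells, fell by 0.61 (limma adjusted p 0.0154, lost in 4 of 21 alternatives, among them without knockout 1 or 2, at 0.0641 and 0.0585). The list's median was -0.03.

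Markers of other cell types give the setting of the blood signal. Of 7 endothelial genes tested, 0 passed the threshold (0 also at an unadjusted limma p under 0.05), with a median of 0.24; the list's mean level ran from -0.32 to 0.34 on control and from -0.26 to 0.62 on knockout arrays. Cdh5, Emcn, Pecam1, Tek, Tie1 and Vwf were lowest on control 1, control 2 and knockout 4, the arrays where Hba-a1, Hbb-b1 and Hbb-b2 were highest. Cdh5 was 0.07, -0.49 and -0.16 there and 0.94 to 1.46 on the other arrays. Kdr, the remaining gene, was instead highest on knockout 4. The cause was not tested. Of 4 tested platelet genes 0 passed, and 0 had an unadjusted limma p under 0.05, with a median of 0.16. Of 8 leukocyte genes 0 passed (2 with an unadjusted limma p under 0.05), with a median of -0.10. The mean level of the list was at least 1.29 on every control array and at most 1.15 on every knockout array. Single genes differed unequally: Lyz2, Cd79a and Itgam by -0.49, -0.38 and -0.34, and Cd74 and Csf1r by -0.12 and -0.09. Cd52, Cd3e and Ptprc differed by -0.04, -0.04 and 0.004. Among all genes tested, 9.24% had knockout values wholly below the control values. The mean was lower on the knockout arrays for 7 of the 8 genes, and for 5 of 8 under quantile normalization or median centring.

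The fetal liver is the main site of red cell production at this stage, so liver genes were read beside the members. Of 7 liver genes tested 2 rose, Fgb (fibrinogen beta) by 1.20 (limma adjusted p 0.00318) and Ttr (transthyretin) by 0.63 (limma adjusted p 0.00333), and the list's median was 0.63. The list's mean level ran from 2.38 to 3.87 on control and from 3.42 to 4.11 on knockout arrays. Alb, albumin, was 1.75, -1.38, -3.16 and -2.91 on control arrays 1 to 4 and 1.96, -0.62, 0.73 and -0.93 on knockout arrays 1 to 4. It was highest on knockout 1 and control 1, of which control 1 was high and knockout 1 low for the members. Ahsg, a further liver gene, was highest on the same arrays, at 2.743 and 2.401, and lowest on control 3, at -2.202. Alb and Ahsg did not pass the threshold (limma adjusted p 0.416 and 0.381). Over the control arrays Fgb ran only from 1.558 to 2.235 and Ttr from 4.151 to 4.406, so the called genes did not follow Alb between arrays. Afp ran from 6.539 to 7.528 there, Serpina1a from 5.629 to 6.116 and Apoa2 from 2.591 to 2.828. Which cells express these genes was not tested, so the list's median and mean are not a measure of liver RNA. The part of liver RNA in the members' values was not tested. Of 8 small intestine epithelium genes tested 3 fell, Fabp2 by 0.42, Apoa4 by 0.61 and Lct by 0.75 (limma adjusted p 0.0483, 0.0222 and 0.0297), a list median of -0.20. All 3 calls were lost under quantile normalization, under median centring, and without control 1, control 3, knockout 1 or knockout 2.

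The genes outside the members whose pattern over the 8 arrays lay nearest to Hba-a1 were Sdr16c5, Slc6a20a and Prrx1, at root mean square distances of 0.074, 0.099 and 0.100 between centred log2 levels, where the median over 23159 genes was 0.357. Nearest to Alas2 was a probe with no gene name in the files, at 0.0847; Sdr16c5 was the third, at 0.121. Hbb-bh1 has no such list because it was not tested. With 8 arrays, many genes can resemble a given pattern closely.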

How the data were processed

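Total RNA of E18.5 small intestine was amplified and labelled with Cy3 from 100 ng, per the labels' protocols, and read by Agilent Feature Extraction 10.10.1.1, per the submitters' processing notes. The deposited scanner files hold a background-subtracted intensity per spot (the processed signal), per the file headers, not scaled between arrays; no further step of the authors is given in the sources used here. The authors' series matrix holds an intensity with the same sorted values on every array (median 130), as quantile normalization gives; it is linear, rises with the scanner signal, and its background handling is unknown.

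Control spots (3671 of 62976) and 153 to 355 outlier spots per array were left out, and spots of a probe were averaged; probes with every spot an outlier (4 to 145 per array) were missing, which touched 110 tested genes and no member. No gene spot was saturated. Levels are log2(processed signal) minus the array's 75th percentile. A probe was kept if well above background on all 4 arrays of a group (31662 probes), and the brightest probe stood for each gene (23276 genes). Of 55681 probes, 26320 carried a current symbol of the GRCm38.p6 RefSeq table, 2864 were named through an accession, 492 through a synonym and 26005 kept the file's name. Coordinates of probes are mm9 as in the files.

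The comparison used limma 3.58.1 in R 4.3.3 (lmFit, then eBayes), two-sided, Benjamini-Hochberg adjusted over all genes, threshold 0.05; single genes also by an exact permutation test over 70 splits. For arrays, their number limits the precision. The script was tested on simulated data. Alternatives were normexp (offset 50), quantile and median scaling, the series matrix, no filter, a filter on all 8 arrays, a gene's mean probe, every probe, replicate number or slide row as a block, array weights, a trended prior and leaving out each array. Outlier spots were first used where a probe had no other spot; this was replaced by missing values after its counts had been seen, to match an earlier processing of these data, and the first handling is given as an added alternative. Members and gene lists were chosen with earlier results of these data known. The genes named are the members, Rfx6, list genes past the threshold or with the largest differences, and the 3 nearest to Hba-a1 and Alas2 (some genes of the lists and of the nearest patterns are not reported here); others named for their role are values only.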

Additional observations from a re-analysis of the deposited data

Results flagged for a closer look

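Of 26 sets of 4 arrays examined for an array far from the other 3, 4 held one; chance alone gives about 1 in 20. Hbb-bh1 on control 4 had a level of -4.15, where the other control arrays lay between -3.62 and -3.52; the probe was not well above background on that array. The coding probe of Hbb-y on control 2 had a level of -1.98, with the other control arrays between -3.65 and -3.43, and the second Hbb-y probe was also highest there, at -1.91. Rfx6 on control 4 had a level of -3.75, with the other control arrays between -2.98 and -2.91. The embryonic minus adult globin difference on knockout 1 was -0.37, with the other knockout arrays between 0.17 and 0.26.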

How the results depend on the processing

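Over 21 alternatives, 6 of the 7 tested members kept a lower mean on the knockout arrays, with log2 differences from -0.89 to -0.37 for Slc4a1, -1.17 to -0.63 for Hbb-b1, -1.07 to -0.52 for Ahsp, -0.65 to -0.21 for Hbb-b2, -0.47 to -0.18 for Hba-a1 and -0.31 to -0.04 for Alas2. Hbb-y reversed to 0.0068 without control 2, and ran from -0.64 to 0.0068 as each array was left out. The count of members past the threshold was 1 with slide row as a block (Slc4a1) and 0 in the other 20. Over all genes, the count was 501 with no filter (203 lower, 298 higher), 416 with the replicate block (148 lower, 268 higher) and 1912 with array weights (1130 lower); median centring gave 253 lower. Leaving out 1 array gave 552 to 1099 in all, 217 to 589 lower and 335 to 510 higher; the count fell by over 1.5 times without control 1 (601), control 3 (720), control 4 (754), knockout 1 (552) or knockout 2 (574). The cause was not tested. The added handling of outlier spots, chosen after seeing the data, gave 1084. Deviations of same-numbered arrays correlated at -0.07, -0.17, 0.07 and -0.41, so the replicate numbers give no sign of pairing; the block called 0 members. The embryonic minus adult difference between groups ran from -0.06 to 0.44 and the members' median SD from 0.36 to 0.55 over 13 alternatives, within their spread. Precision is limited by 4 arrays a group, and for Hba-x, Hbb-bh1 and the second Hbb-y probe by signals near background.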
